A study of Canis lupus familiaris with 25 samples.

Results

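The genes described here encode the enzymes that make and use glutathione, the other enzymes that remove superoxide and peroxides, the NRF2 switch that controls many of them, and the proteins that store and export iron. They were chosen by name, as 38 symbols that cover glutathione peroxidases, peroxiredoxins with sulfiredoxin, thioredoxins with their reductases, superoxide dismutases, glutathione synthesis, glutathione transferases, NRF2 with KEAP1 and NQO1, and ferroportin with ferritin. Of these, 35 had a count among the 24532 genes of the deposited table. GPX4, TXN and GSTM3 were not listed under these symbols and were not among the 35. The NRF2 gene is called NFE2L2 and the ferroportin gene SLC40A1.

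All samples were archived, formalin-fixed and paraffin-embedded (FFPE) tumors from pet dogs, measured by QuantSeq 3′ sequencing of RNA extracted after tissue next to the tumor had been removed. The 10 hepatoid gland adenomas (HGA) came from 5 female and 5 male dogs aged 8 to 14 years, of which 6 were intact and 4 neutered. The 11 primary apocrine gland anal sac adenocarcinomas (AGASAC) came from 5 female and 6 male dogs aged 8 to 12.5 years, of which 2 were intact and 9 neutered. The 4 AGASAC metastases were sublumbar lymph nodes of the dogs with primary tumors 1 to 4, aged 8 to 10 years, 2 of each sex, of which 1 was intact and 3 were neutered. Tumor type therefore went partly with neutering, and the naming of the samples fell into 2 series that also went with the groups: 9 of 10 HGA and all 4 metastases, but 3 of 11 primary AGASAC, belonged to the first series, and the series of 1 primary tumor, number 4, was not given. Total counts were 1562347 to 6389555 per HGA, 2581453 to 4218340 per primary AGASAC and 2857541 to 3289546 per metastasis. DV200, the share of RNA fragments over a set length, was 70.5 to 92.7% in HGA, 70.2 to 84.4% in primary AGASAC and 71.8 to 82.9% in metastases.

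Cells form superoxide and hydrogen peroxide in mitochondria, in the endoplasmic reticulum and through oxidases. Superoxide dismutases turn superoxide into hydrogen peroxide, which glutathione peroxidases and peroxiredoxins reduce, with glutathione or thioredoxin as the donor of electrons and NADPH behind both. KEAP1 holds NRF2 at a low level until oxidants or electrophiles modify it, after which NRF2 raises the transcription of glutathione synthesis, NQO1 and other protective genes, and ferritin and ferroportin keep free iron, which turns peroxides into radicals, low.

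Levels are given as CPM, counts scaled to a common library total with TMM factors. A gene was called when edgeR's quasi-likelihood test gave an adjusted p (Benjamini-Yekutieli, over all genes tested) of at most 0.05 and a log2 fold change (log2FC) of at least 1 in size. The p-values test a difference between groups against the spread between these tumors. A count of 3, the floor that a count of 0 allows, corresponded to 1.84 CPM in HGA 4, 1.27 CPM in HGA 9 and 1.29 CPM in HGA 10, and floors cover counting error only.

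Libraries HGA 10 and HGA 4 stood apart from the other HGA. HGA 10 had the lowest level of the 10 HGA in 18 of the 35 antioxidant genes and the highest in 3, while over 12008 genes it was lowest in 20.2% and highest in 20%. It was the one HGA of the second naming series and the one sample of its extraction batch, so sample, series and batch cannot be told apart for it. HGA 4 had the fewest counts of all 25 samples and was highest in 8 of the 35 genes and lowest in 3, beside 13.8% and 19.6% of all genes. HGA 9 came near HGA 4, lowest in 6 and highest in 4 of the 35 genes and in 17.4% and 13.2% of all genes. Counts of called genes are also given without HGA 4 and HGA 10, a choice made after seeing the data.

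**Figure D1:**
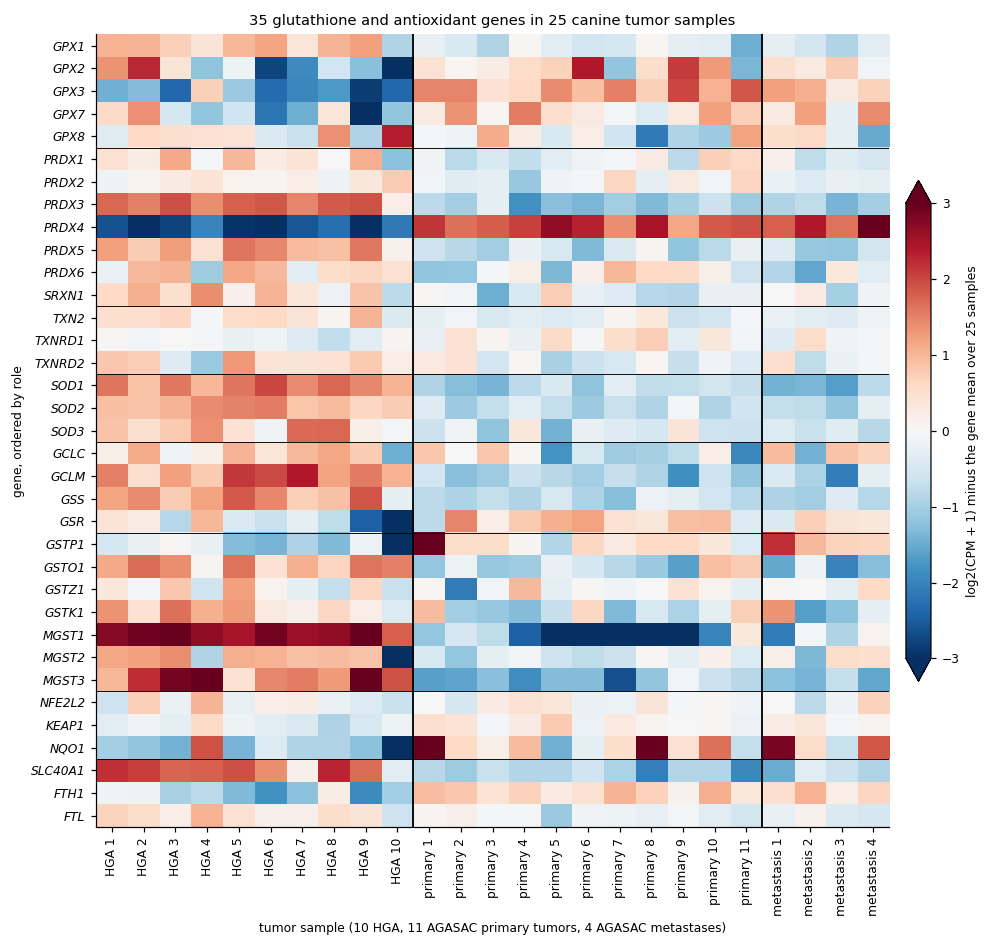
Heat map of the 35 antioxidant genes (vertical axis, by role) in 25 samples (horizontal axis, by group), with color for log2(CPM + 1) in each sample minus the gene's mean over all samples, the scale ending at −3 and 3. The superoxide dismutases, PRDX3, PRDX5, MGST1 and MGST3 are higher in HGA than in AGASAC, and PRDX4 is lower in every HGA.

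Between HGA and primary AGASAC, the question was how the benign tumor of the hepatoid glands differs from the carcinoma of the anal sac glands. Many of the antioxidant enzymes were higher in HGA: all 3 superoxide dismutases, the mitochondrial peroxiredoxin PRDX3 together with PRDX5, the glutathione synthesis genes GCLM and GSS, and the membrane-bound transferases MGST1, MGST2 and MGST3 rose. PRDX4, GPX3, GSTP1 and the ferritin heavy chain FTH1 fell. The largest log2FC in either direction were 4.35 for MGST1 and −4.92 for PRDX4, with standard errors of 0.51 and 0.39 over 10 HGA and 11 primary tumors.

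All 35 genes passed the filter on low counts, and 17 (48.6%) were called, where 25.1% of all 12070 genes tested were called. Of the 17, 13 were higher in HGA, beside 12.6% of all genes, and 4 were lower, beside 12.5%. The median log2FC over the 35 genes was 0.70 and over all genes −0.03, with 25 of the 35 above 0 and 10 below. In 9 of the 35 the HGA and the primary tumors did not overlap in CPM, 8 of them higher and 1 lower in HGA, where 9.13% of all genes did not overlap. In bulk tissue, fewer cells of a type and less RNA per cell cannot be told apart. Without HGA 10, 19 of the 35 genes were called, 15 higher and 4 lower, beside 3373 of all 12375 genes tested. Without HGA 4 and HGA 10 together, 17 were called, 13 higher and 4 lower, beside 3530 of all 12712 genes tested.

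The RNA of these samples was extracted in batches, 3 of which held at least 2 samples of each tumor type. Within batch 5 (3 HGA and 3 primary AGASAC) 1 of the 35 genes was called, SLC40A1, beside 2.12% of all genes. Within batch 6 (3 and 2) the test called 7 of the 35, beside 4.84%, and within batch 8 (2 and 3) it called 5, beside 2.46%. Within the first naming series (9 HGA and 3 primary AGASAC) 14 were called, 12 higher and 2 lower, beside 16.1% of all genes. All 17 genes called over all samples had the same sign in each of these 4 fits.

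**Figure D2:**
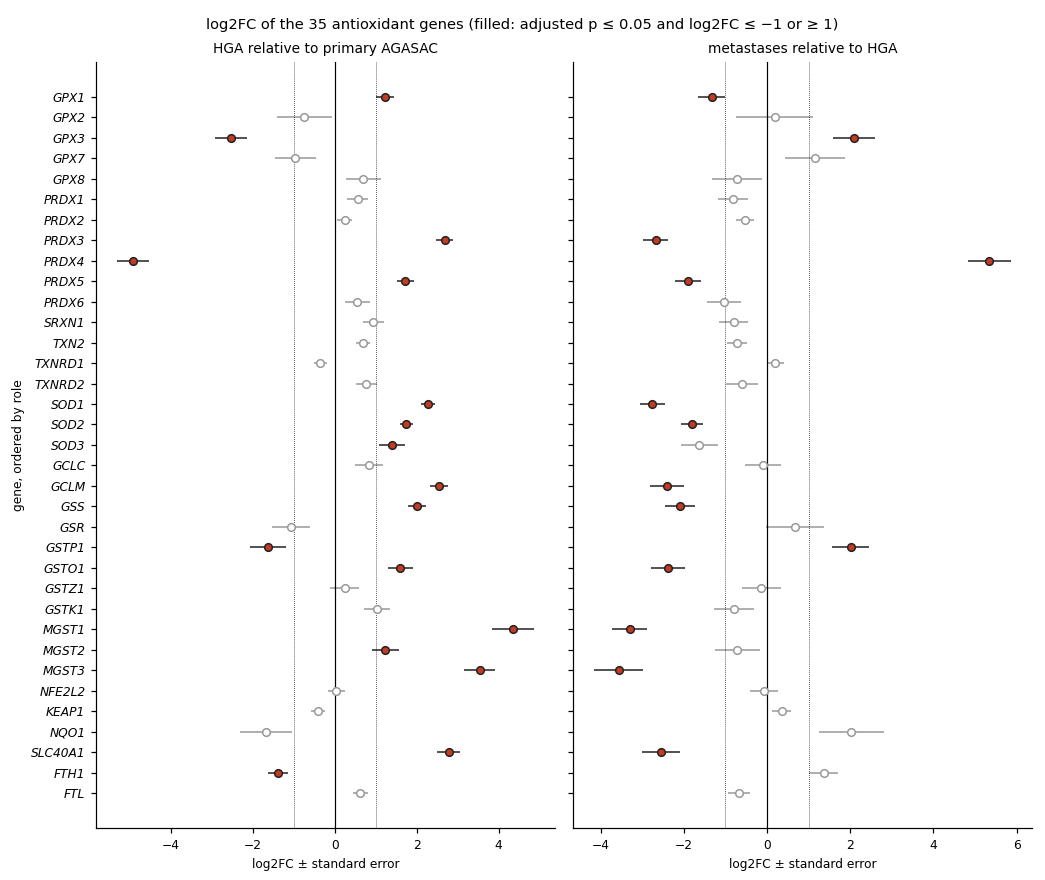
Log2FC (horizontal axis) with standard error bars for each of the 35 antioxidant genes (vertical axis, by role), in HGA relative to primary AGASAC on the left and in metastases relative to HGA on the right, with filled points for called genes and dotted lines at −1 and 1. PRDX4 lies farthest from 0 in both panels.

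Superoxide dismutases rose as a group, 3 of 3. SOD1, the copper and zinc enzyme of the cytosol, was at 1105 to 2451 CPM (median 1747) in HGA and 229.8 to 487 CPM (median 368) in primary AGASAC. Every HGA lay above every primary tumor, and the log2FC was 2.27 (standard error 0.18, adjusted p = 4.07e-09). SOD2, the manganese enzyme of mitochondria, was at 294 to 554 CPM (median 366) in HGA against 90.2 to 185 CPM (median 116) in primary AGASAC. Here too the groups did not overlap, with HGA 6 highest and the primary tumor nearest to the HGA being number 9, and the log2FC was 1.75 (standard error 0.16, adjusted p = 6.87e-08). SOD3, which is secreted and acts outside the cell, had low levels of 7.35 to 29.2 CPM (median 13.3) in HGA and 2.43 to 10.9 CPM (median 5.36) in primary AGASAC. Its groups overlapped, with 7 of 10 HGA above the highest primary tumor, and its log2FC was 1.39 (standard error 0.32, adjusted p = 0.0086). The SOD3 call was lost when scaled by library size alone (1.097, adjusted p = 0.0767) and within the first naming series (1.74, adjusted p = 0.206). It was also lost with a block by tumor number (adjusted p = 0.0734), a fit without primary tumor 11. The numbers do not pair HGA with primary tumors, so calls lost or gained with this block do not show how stable they are.

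Peroxiredoxins reduce hydrogen peroxide with thioredoxin, and they moved in both directions: 2 rose, 1 fell, and the other 4 genes of the group, SRXN1 included, were not called. PRDX3, the mitochondrial form, stood at 193 to 641 CPM (median 572) in HGA and 47.0 to 137 CPM (median 80.0) in primary AGASAC. HGA 10 was the lowest HGA by far and still above the highest primary tumor, number 3, and the log2FC was 2.68 (standard error 0.20, adjusted p = 2.46e-09). PRDX5, found in mitochondria, peroxisomes and cytosol, reached 565 to 1596 CPM (median 1119.7) in HGA and 206 to 551 CPM (median 335) in primary AGASAC. Again the groups did not overlap, although HGA 10 came close to primary tumor 8, and the log2FC was 1.72 (standard error 0.21, adjusted p = 3.81e-06). PRDX4, the form of the endoplasmic reticulum, ran the other way at 0 to 14.8 CPM (median 8.51) in HGA and 138 to 389 CPM (median 237) in primary AGASAC. HGA 9 had no PRDX4 count, no HGA came near a primary tumor, and the log2FC was −4.92 (standard error 0.39, adjusted p = 5.73e-09).

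Among the remaining genes of that group, PRDX1 of the cytosol had a mean of 811 ± 336 CPM (SD) in HGA and 564 ± 217 in primary AGASAC, with a log2FC of 0.56 (adjusted p = 0.707). PRDX2, also cytosolic, was at 149 ± 30.5 and 128 ± 42.2 CPM (log2FC 0.25, adjusted p = 1). PRDX6, which takes glutathione as its donor, was at 326 ± 133 and 226 ± 113 CPM (log2FC 0.56, adjusted p = 1). The groups overlapped for all of these. SRXN1, sulfiredoxin, which restores overoxidised peroxiredoxins, was at 19.8 to 93.5 CPM (median 50.8) in HGA and 11.9 to 58.3 CPM (median 28.9) in primary AGASAC, overlapping, with 9 of 10 HGA above the primary median. It passed the adjusted p but not the fold change, at a log2FC of 0.95 (standard error 0.26, adjusted p = 0.045), and was called without HGA 8 (1.02), without HGA 10 (1.04) or without primary tumor 5 (1.104), and over all samples with extraction batch as a term (1.18, adjusted p = 0.0128).

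In the thioredoxin group edgeR and DESeq2 called 0 of 3 genes, each with 3 at an unadjusted p under 0.05. Of all genes tested, 6477 of 12070 by edgeR and 9083 of 24332 by DESeq2 had such a p. TXN2, the mitochondrial thioredoxin, was at 140.3 ± 37.7 CPM in HGA and 89.1 ± 19.0 in primary AGASAC and passed the adjusted p only, at a log2FC of 0.69 (standard error 0.16, adjusted p = 0.014). TXNRD1, the cytosolic reductase that recharges thioredoxin, was at 68.2 ± 11.0 and 88.7 ± 23.5 CPM (log2FC −0.35, adjusted p = 0.678). TXNRD2, the mitochondrial reductase, was at 20.7 ± 8.65 and 12.4 ± 4.202 CPM (log2FC 0.77, adjusted p = 0.162). HGA and primary tumors overlapped in all 3.

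Glutathione peroxidases, which reduce peroxides with glutathione, moved in both directions, with 1 of 5 higher, 1 lower and 3 not called. GPX1, the widespread selenoenzyme of cytosol and mitochondria, was at 178 to 776 CPM (median 663) in HGA and 119 to 343 CPM (median 267) in primary AGASAC. HGA 10 lay inside the range of the primary tumors and the other 9 HGA above it, and the log2FC was 1.23 (standard error 0.22, adjusted p = 0.000617). With library size alone as the scaling, GPX1 did not reach the fold change needed for a call (0.93). GPX3, the secreted form found in plasma, was at 47.9 to 572 CPM (median 97.7) in HGA and 471 to 1409 CPM (median 931) in primary AGASAC. HGA 4 alone reached the range of the primary tumors, the other 9 HGA were all below it, and the log2FC was −2.53 (standard error 0.39, adjusted p = 9.18e-05). Within the first naming series the GPX3 log2FC was −2.34 and not called (adjusted p = 0.0507).

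The other peroxidases of this family were not called. GPX2, known from gut epithelium, was at 9.97 ± 13.9 CPM in HGA and 16.97 ± 14.6 in primary AGASAC (log2FC −0.74, adjusted p = 1). GPX7, of the endoplasmic reticulum, was at 8.97 ± 9.21 and 17.8 ± 8.49 CPM (log2FC −0.96, adjusted p = 1). GPX8, a membrane protein of the same compartment, was at 22.5 ± 20.3 and 14.1 ± 9.78 CPM (log2FC 0.70, adjusted p = 1). Single HGA drew these means up, HGA 2 for GPX2 and HGA 10 for GPX8, and the groups overlapped.

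**Figure D3:**
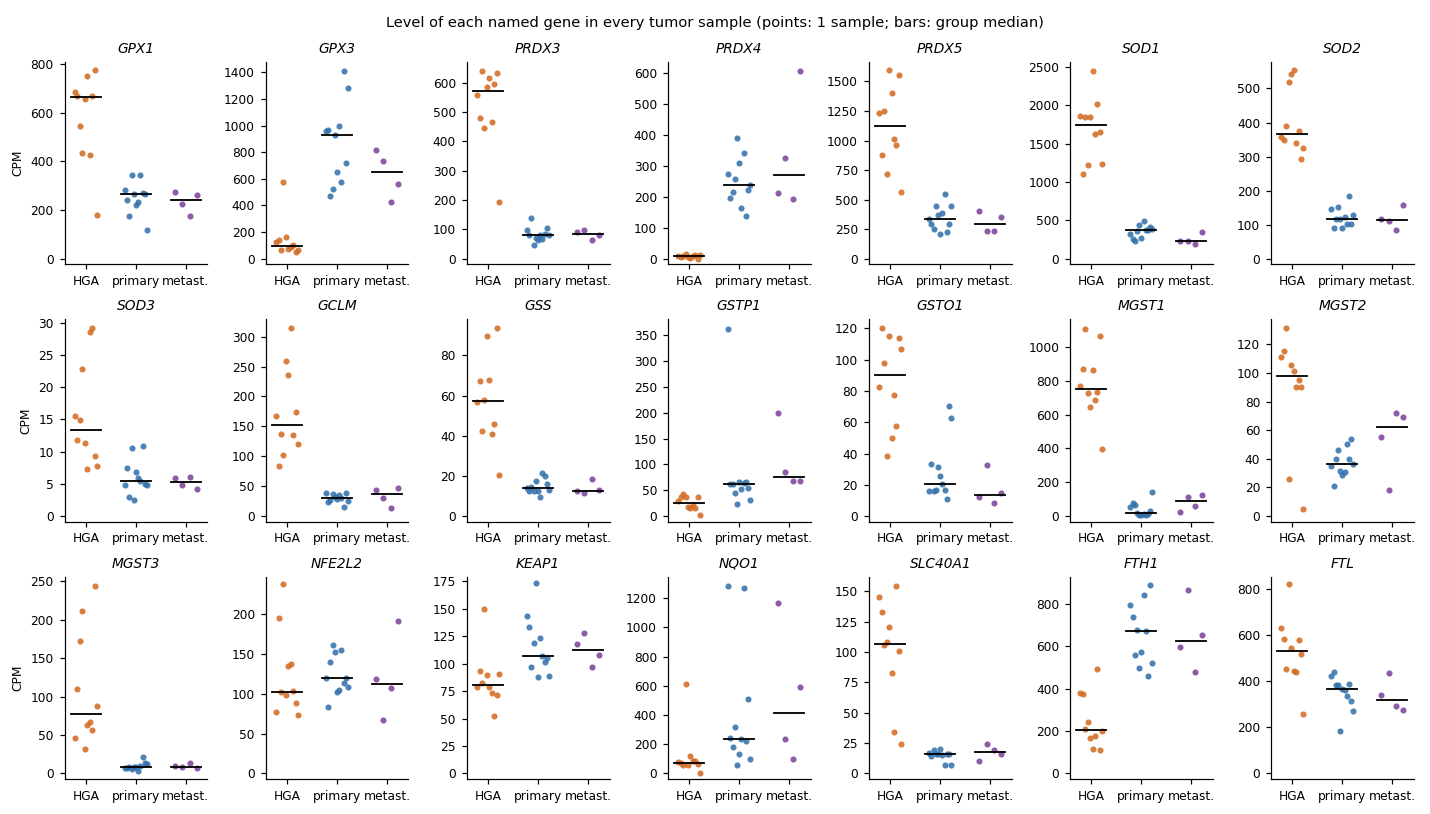
CPM (vertical axis, from 0) of the 17 called genes and FTL, NFE2L2, KEAP1 and NQO1, with 1 point for each sample in 3 groups (HGA, primary AGASAC, metastases) and a bar at the group median. SOD1, PRDX3 and MGST1 are higher in all 10 HGA than in any AGASAC sample.

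In glutathione synthesis 2 of 4 genes rose. GCLM, the modifier subunit of glutamate-cysteine ligase, the enzyme of the rate-limiting step, was at 83.6 to 314 CPM (median 152) in HGA and 15.5 to 38.9 CPM (median 30.8) in primary AGASAC. No HGA reached down to the primary tumors, and the log2FC was 2.54 (standard error 0.22, adjusted p = 2.16e-08). GSS, glutathione synthetase, was at 20.2 to 93.8 CPM (median 57.3) in HGA and 9.44 to 21.4 CPM (median 13.9) in primary AGASAC. HGA 10 lay between primary tumors 9 and 8 and the other HGA above all of them, and the log2FC was 2.00 (standard error 0.22, adjusted p = 1.11e-06). GCLC, the catalytic subunit of the ligase, was at 115 ± 48.0 and 65.9 ± 40.7 CPM and was not called (log2FC 0.84, adjusted p = 0.453). GSR, which reduces oxidised glutathione with NADPH, was at 7.18 ± 5.68 and 15.3 ± 6.69 CPM (log2FC −1.07, adjusted p = 0.605), with no count in HGA 10.

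Glutathione transferases join glutathione to reactive compounds, and some of them also reduce lipid peroxides. Of the 7 measured, 4 rose and 1 fell. MGST1, a membrane enzyme of the endoplasmic reticulum and the outer mitochondrial membrane, was at 398 to 1107 CPM (median 750.0) in HGA and 5.86 to 144 CPM (median 20.3) in primary AGASAC. The highest primary tumor, number 11, stayed under the lowest HGA, HGA 10, and the log2FC was 4.35 (standard error 0.51, adjusted p = 2.3e-06). MGST3, a related membrane enzyme, was at 31.3 to 244 CPM (median 77.4) in HGA and 2.80 to 21.5 CPM (median 8.68) in primary AGASAC. HGA 5 was the lowest HGA and primary tumor 9 the highest of its group, with no overlap, and the log2FC was 3.54 (standard error 0.38, adjusted p = 7.38e-07).

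MGST2, which can also form leukotriene C, was at 5.16 to 131 CPM (median 98.1) in HGA and 21.2 to 54.2 CPM (median 36.4) in primary AGASAC. HGA 4 and HGA 10 were the lowest HGA, both under the primary median, the other 8 lay above every primary tumor, and the log2FC was 1.24 (standard error 0.32, adjusted p = 0.0296). The MGST2 call was lost in 11 of 21 fits that left out 1 sample each (HGA 1, 2, 3, 5, 6 or 8, or primary tumor 1, 2, 5, 6 or 7), in which the log2FC stayed between 1.16 and 1.22 and the adjusted p between 0.0506 and 0.067, and with neutered or intact status as a term in the fit (adjusted p = 0.118), library size alone (0.188), no filter on low counts (0.0551) or the block by number (0.644). GSTO1, a cytosolic enzyme that reduces dehydroascorbate, was at 38.7 to 120.2 CPM (median 90.2) in HGA and 11.2 to 70.2 CPM (median 20.3) in primary AGASAC. Primary tumors 10 and 11 and 3 of the HGA overlapped, and the log2FC was 1.60 (standard error 0.31, adjusted p = 0.00148).

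GSTP1, a cytosolic transferase that is abundant in many epithelia, was at 2.15 to 43.3 CPM (median 25.7) in HGA and 22.6 to 363 CPM (median 62.4) in primary AGASAC. Primary tumor 1 was far above all others, HGA 10 was the lowest HGA, primary tumors 5 and 11 lay among the HGA, and the log2FC was −1.63 (standard error 0.45, adjusted p = 0.0444). That call was lost in 14 of 21 fits that left out 1 sample each (HGA 1, 2, 4, 5, 6, 7, 8 or 9, or primary tumor 1, 2, 3, 6, 8 or 9), with log2FC between −1.71 and −1.03 and adjusted p between 0.0501 and 0.128 in those 14. The value without primary tumor 1 was −1.03 (adjusted p = 0.128), and with neutered or intact status as a term it was −1.63 (adjusted p = 0.184). With extraction batch as a term, GSTP1 was at −1.42 (adjusted p = 0.15) and also not called, as with the block by number (adjusted p = 0.0724) and without HGA 4 and HGA 10 together (adjusted p = 0.0545). GSTK1, of mitochondria and peroxisomes, was at 231 ± 104 and 115 ± 75.1 CPM and missed the adjusted p (log2FC 1.04, adjusted p = 0.0955). It was called without HGA 10 (1.13), without primary tumor 1 (1.22) or without primary tumor 11 (1.18), and with Benjamini-Hochberg adjustment (adjusted p = 0.00957). GSTK1 was also called with the block by number (1.27), a fit that left out primary tumor 11 too. GSTZ1, of tyrosine breakdown, was at 7.24 ± 4.02 and 6.19 ± 2.90 CPM (log2FC 0.24, adjusted p = 1).

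In the NRF2 group edgeR and DESeq2 called 0 of 3 genes, each with 2 at an unadjusted p under 0.05, beside 6477 of all 12070 genes by edgeR and 9083 of 24332 by DESeq2. NFE2L2 was at 73.5 to 239 CPM (median 103) in HGA and 83.7 to 161 CPM (median 119.7) in primary AGASAC. The HGA spread to both sides of the primary tumors, HGA 4 and HGA 2 above them and HGA 10 and HGA 1 below, and the log2FC was 0.04 (standard error 0.20, adjusted p = 1), a sign that turned with the scaling and with single samples left out. KEAP1, the adaptor that marks NRF2 for breakdown, was at 52.6 to 149 CPM (median 80.6) in HGA and 88.2 to 173 CPM (median 107) in primary AGASAC. HGA 4 was the one HGA above the primary median, 6 of 10 HGA lay below every primary tumor, and the log2FC was −0.41 (standard error 0.17, adjusted p = 0.477).

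NQO1, the quinone reductase used widely as a readout of NRF2, is given in full because its values stood out, a choice made after they were seen. It was at 1.72 to 609.9 CPM (median 75.1) in HGA and 59.0 to 1282 CPM (median 235) in primary AGASAC. HGA 4 was far above the other HGA, HGA 10 had almost none, and among the primary tumors numbers 1 (1282 CPM) and 8 (1267 CPM) were far above the rest. The log2FC was −1.68 (standard error 0.64, adjusted p = 0.332), so NQO1 was not called. With Benjamini-Hochberg adjustment it was called (adjusted p = 0.0333). Without HGA 4 it was also called lower in HGA, with a log2FC of −2.52 (adjusted p = 0.0108), and without HGA 4 and HGA 10 the value was −2.35 (adjusted p = 0.00603). Within extraction batch 5, which held HGA 4, the sign was the opposite, at 0.27 (adjusted p = 1). Of the 21 fits without 1 sample, that without HGA 4 was the one that called NQO1, with adjusted p from 0.0108 to 0.789 over them.

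Of the iron genes, the exporter rose and the heavy chain of the store fell. SLC40A1, ferroportin, was at 24.5 to 154 CPM (median 107) in HGA and 6.70 to 20.0 CPM (median 16.3) in primary AGASAC. HGA 10 and HGA 7 were the lowest HGA, both above primary tumor 6, the highest of its group, and the log2FC was 2.78 (standard error 0.29, adjusted p = 3.06e-07). FTH1, the ferritin chain that oxidises iron for storage, was at 110.3 to 493 CPM (median 207) in HGA and 462 to 890.2 CPM (median 673) in primary AGASAC. HGA 8 alone reached into the range of the primary tumors, and the log2FC was −1.37 (standard error 0.24, adjusted p = 0.000592), with −1.44 (adjusted p = 0.101) within the first naming series. FTL, the light chain, was at 258 to 823 CPM (median 531) in HGA and 183 to 442 CPM (median 369) in primary AGASAC. The HGA other than HGA 10 lay above every primary tumor, 9 of 10, and the log2FC of 0.63 (standard error 0.18, adjusted p = 0.0624) did not pass.

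Reads that matched several places had been shared evenly among them by the authors, so levels within the peroxiredoxin, transferase and ferritin families and of SOD1, which have close relatives or processed copies, are uncertain to that extent. In the dog assembly UU_Cfam_GSD_1.0, 16 of the 17 called genes could be placed and 8 had another gene within 2 kb, the length by which the authors extended gene ends. Of the 5 such neighbours that were tested, ACSS2 beside GSS was called too, with a log2FC of 1.32, and RHOA beside GPX1, TNIP1 beside GPX3 and TRMT112 and ESRRA beside PRDX5 were not (0.13, 0.10, −0.09 and 0.80). Part of a count may belong to a neighbour, which was not tested.

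Markers of epithelial lineage separated the tumor types. Luminal gland keratins with EPCAM (5 of 5 found) summed to 409 to 731 CPM in HGA, with EPCAM the most abundant, and to 3556 to 6221 CPM in primary AGASAC, with KRT19 the most abundant. Basal and hepatoid markers (4 of 4: KRT5, KRT14, KRT15 and TP63) summed to 3067 to 12799 CPM in HGA, mostly KRT14, and to 0 to 33.3 CPM in primary AGASAC, with KRT5 the most abundant. These markers differed between the same groups as the genes called above, and what comes from the lineage and what from the disease cannot be told apart in this design.

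Markers of other cell types also differed between the groups, and the part of these cells in the results for the antioxidant genes was not tested. Skeletal muscle markers (7 of 7) summed to 4.62 to 768 CPM in primary AGASAC, with 356 in number 2, 303 in number 4 and the highest in number 5, mostly ACTA1, and to 0.424 to 20.5 in HGA, where MYH1 was at 0. Adipocyte markers (4 of 4) summed to 2.08 to 399 CPM in primary AGASAC, with 220.0 in number 5 and the highest in number 11, mostly ADIPOQ. In HGA they summed to 5.53 to 112 CPM, mostly PLIN4. These markers went opposite ways. ADIPOQ was at 399 CPM in primary tumor 11, where PLIN1, PLIN4 and LEP were at 0, while PLIN4 was above every primary tumor in 8 of 10 HGA. High sums in primary tumors therefore rest on ADIPOQ alone. Without primary tumors 2, 4, 5 and 11, which passed 200 CPM for one of these lists, again 17 of the 35 genes were called, 13 higher and 4 lower. Of all 12364 genes tested in that fit, 2716 were called, 1477 higher and 1239 lower. That alternative was chosen after seeing the data, and under it MGST2 was lost (adjusted p = 0.255) and SRXN1 gained.

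Macrophage markers (8 of 8) summed to 84.8 to 329 CPM in HGA and 171 to 491 in primary AGASAC, with C1QA the most abundant in both. Fibroblast markers (6 of 6) summed to 1206 to 5708 and 1006 to 7906 CPM, with COL1A1 the most abundant, and endothelial markers (4 of 4) to 189.7 to 532 and 48.9 to 225 CPM, mostly VWF. Plasma cell markers (4 of 4) reached 104 CPM in HGA and 191 in primary AGASAC, mostly JCHAIN. Neutrophil markers (4 of 4) were at most 94.1 CPM in HGA, in HGA 4, and 37.8 in primary AGASAC, mostly S100A8. Erythroid markers (3 of 5 found) stayed at or under 7.80 CPM in HGA and 1.01 in primary AGASAC.

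Around the 35 genes lies a wider redox network, for which 90 further genes had been listed by role and 85 were found. Of 73 tested, 28 (38.4%) were called in HGA relative to primary AGASAC, 23 higher and 5 lower, beside 25.1% of all genes, 12.6% higher and 12.5% lower, with a median log2FC of 0.61. The supply of NADPH, on which glutathione and thioredoxin reductases draw, had 7 of 9 genes called, 6 higher and IDH2 lower, and the catalase, glutaredoxin and methionine sulfoxide reductase group had 8 of 13, 7 higher and MSRB3 lower. The other roles had lower shares: lipid peroxidation and radical trapping 2 of 4, glutathione supply, breakdown and conjugation 4 of 13, iron uptake and handling 3 of 10, selenoprotein synthesis and supply 3 of 13, and NRF2 partners and further targets 1 of 11 (9.09%).

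The 3 largest rises were in HMOX1, GLRX5 and PGD. HMOX1, heme oxygenase, which frees iron from heme and is a target of NRF2, was at 12.5 to 1232 CPM (median 147) in HGA and 4.86 to 24.5 CPM (median 16.1) in primary AGASAC. HGA 4 was far above and HGA 10 inside the primary range, and the log2FC was 3.97 (standard error 0.55, adjusted p = 2.75e-05). It was 3.04 without HGA 4, where it was called and stood below GLRX5 (3.62) and PGD (3.26), and 3.74 (adjusted p = 0.0707) within the first naming series. GLRX5, a mitochondrial glutaredoxin of iron-sulfur cluster assembly, was at 353 to 1712 CPM (median 1024) in HGA and 35.7 to 121 CPM (median 85.1) in primary AGASAC, without overlap (log2FC 3.63, adjusted p = 4.88e-10). PGD, an NADPH-forming enzyme of the pentose phosphate pathway, was at 499 to 3188 CPM (median 2553) and 138 to 287 CPM (median 230.1), also without overlap (log2FC 3.31, adjusted p = 4.59e-09).

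The 3 largest falls were in CP, SELENOM and PTGES. CP, ceruloplasmin, the ferroxidase that works with ferroportin, was at 0 to 2.70 CPM (median 0.285) in HGA and 2.71 to 703 CPM (median 101) in primary AGASAC. With no CP count in 5 of 10 HGA, its log2FC of −7.76 (standard error 0.94, adjusted p = 3.62e-06) rests on very few HGA counts. SELENOM, a selenoprotein of the endoplasmic reticulum, was at 2.12 to 23.5 CPM (median 12.8) in HGA and 76.2 to 593 CPM (median 319.9) in primary AGASAC, without overlap (log2FC −4.47, adjusted p = 1.51e-08). PTGES, a glutathione-dependent prostaglandin E synthase related to the MGST enzymes, was at 10.3 to 98.7 CPM (median 23.6) and 50.7 to 212 CPM (median 148), overlapping (log2FC −1.81, adjusted p = 0.00413), and it was not called without primary tumors 2, 4, 5 and 11 (−1.39, adjusted p = 0.107) or within the first naming series (−1.60, adjusted p = 0.3).

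**Figure D4:**
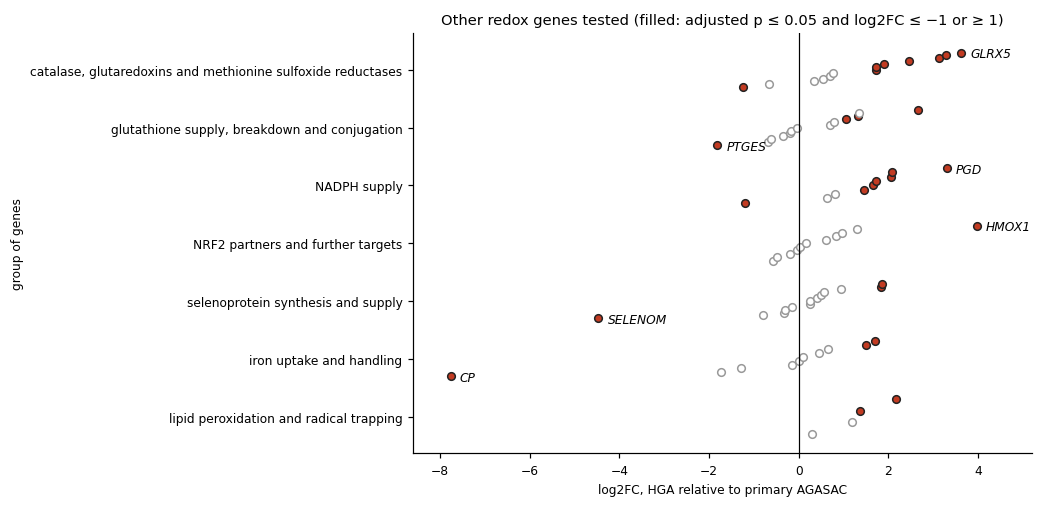
Log2FC in HGA relative to primary AGASAC (horizontal axis) for the other redox genes tested, as points by role (vertical axis); filled points were called. In the NADPH supply group 6 of 9 genes are called higher and 1 lower.

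Between the metastases and the primary tumors of the same 4 dogs, the question was whether these genes differ once the carcinoma has reached the lymph node. No antioxidant gene was called, and where 1 dog was highest at both sites, which dog it was varied by gene. edgeR called 0 of 35 genes, with 0 at an unadjusted p under 0.05 (lowest p 0.19) and 0 of 34 by DESeq2, beside 0% of 12629 genes called and 1.15% at an unadjusted p under 0.05. The log2FC ran from −0.38 to 0.58 with standard errors of 0.17 to 0.81, and its median was −0.04, beside 0.00 over all genes. This fit had no term for the dog, so these standard errors include the spread between dogs. Differences larger than their standard error also did not pass with 4 dogs, such as that of MGST2 (0.58, standard error 0.41), so a missing call does not show equal levels.

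Direction by dog was mixed. PRDX1 and MGST3 were higher in the metastasis of all 4 dogs, SOD1, GSTO1, KEAP1 and FTL lower in all 4, and the other 29 of the 35 genes went both ways, while 12.4% of all genes had the same direction in all 4 dogs. SOD1 was at 328, 251, 229.8 and 355 CPM in primary tumors 1 to 4 and at 227, 233, 194 and 353 CPM in their metastases (log2FC −0.21, standard error 0.26, adjusted p = 1). The difference was widest in dog 1 and smallest in dog 4, and SOD1 was not called. MGST3 was at 6.63, 6.86, 8.90 and 5.56 CPM in the primary tumors and 9.08, 7.96, 13.5 and 7.03 CPM in the metastases (log2FC 0.42, standard error 0.33, adjusted p = 1), all far under the lowest HGA. With the dog as a block in the fit, again 0 of 35 genes were called, and MGST2 alone had an unadjusted p under 0.05 (log2FC 0.49, p = 0.0443, adjusted p = 1). The standard error of MGST2 was 0.20 with the block and 0.41 without it.

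NQO1, GSTP1 and GSTK1 were highest in dog 1 at both sites, as were PRDX1 and PRDX2. SOD1, SOD2, NFE2L2, GPX7 and GSTZ1 were highest at both sites in dog 4. FTL, TXNRD1, GSR and GSTO1 were so in dog 2, and GSS and MGST3 in dog 3. The share of all genes with the same dog highest at both sites was not counted. Metastasis 1 was the highest metastasis in 10 of the 35 genes, beside 28.9% of all genes. Metastasis 2 was also highest in 10, beside 22.1%. NQO1 was at 1282, 245, 182 and 315 CPM in primary tumors 1 to 4 and at 1167, 239, 102 and 592 CPM in the metastases (log2FC 0.05, standard error 0.81, adjusted p = 1). Dog 1 was highest at both sites, and dog 3 lowest at both. GSTP1 was at 363, 62.4, 62.9 and 45.3 CPM in the primary tumors and 199.8, 84.6, 68.5 and 67.4 CPM in the metastases (log2FC −0.34, standard error 0.69, adjusted p = 1). Dog 1 was again far above the others at both sites, with the metastasis lower than the primary tumor in this dog and higher in the other 3. GSTK1 was at 258, 64.0, 59.9 and 53.4 CPM in the primary tumors and 341, 41.4, 56.0 and 109.6 CPM in the metastases (log2FC 0.32, standard error 0.74, adjusted p = 1). MGST1, at 50.9, 80.1, 67.6 and 20.3 CPM in the primary tumors and 26.0, 112, 60.5 and 123 CPM in the metastases, changed places between dogs, with dog 4 lowest in the primary tumors and highest in the metastases (log2FC 0.57, standard error 0.53, adjusted p = 1).

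**Figure D5:**
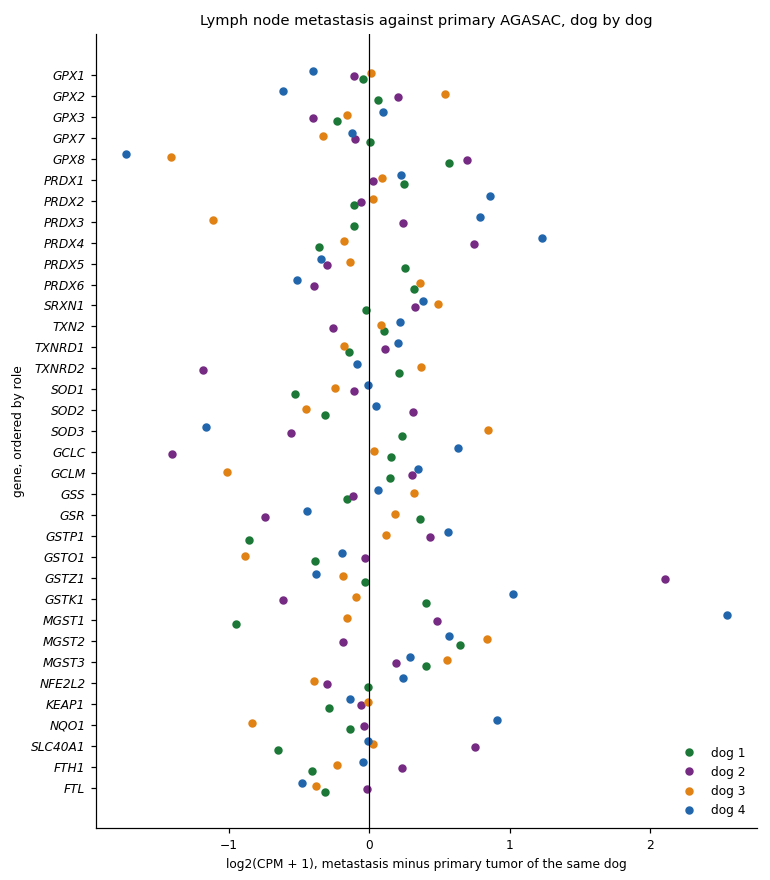
Log2(CPM + 1) in the metastasis minus that in the primary tumor of the same dog (horizontal axis) for each of the 35 antioxidant genes (vertical axis, by role), with 1 colored point for each of 4 dogs. Points lie on both sides of 0 for 29 of the 35 genes.

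Lymph node tissue carries lymphocytes. Of their markers, the T cell gene CD3E was at 7.79, 10.3, 14.2 and 11.5 CPM in the metastases. These levels were above 4.22, 3.59, 4.45 and 6.95 CPM in the primary tumors of these dogs (log2FC 1.18, standard error 0.36, unadjusted p = 0.00952, adjusted p = 1) and above every HGA. Primary tumors 6 and 7 of other dogs had more CD3E than any metastasis, at 22.4 and 28.7 CPM. CD3D and CD2, also of T cells, had a log2FC of 0.48 and 0.05 (adjusted p = 1 for both). The rest of that list is not reported, and the part of lymphocytes in the values of the metastases was not tested. Luminal markers in the metastases were at 3458 to 5982 CPM, with KRT19 the most abundant, and basal markers at 0.531 to 18.5 CPM, with KRT15 at 0 in all 4. Muscle markers, which were high in primary tumors 2 and 4, summed to at most 2.25 CPM in the metastases, with MYH1, MYH2 and CKM at 0. Adipocyte markers ran from 4.82 to 74.1 CPM, mostly ADIPOQ, macrophage markers from 159.9 to 469 CPM, with C1QA the most abundant and MARCO at 0, and fibroblast markers from 729 to 12911 CPM, mostly COL1A1. Neutrophil markers summed to 15.2, 38.2, 22.5 and 55.6 CPM in metastases 1 to 4 and to 15.4, 6.21, 5.93 and 5.56 CPM in the primary tumors of these dogs, with S100A8 the most abundant in the metastases (log2FC 1.31, standard error 0.44, unadjusted p = 0.016, adjusted p = 1). Plasma cell, endothelial and erythroid markers summed to 42.5 to 177, 70.8 to 179 and 0 to 0.958 CPM. The part of these cell types was not tested either.

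Between the metastases and HGA, the 35 genes show where the spread carcinoma stands relative to the benign tumor. Here 14 of 35 (40%) were called, beside 16.1% of 13195 genes. PRDX4, GPX3 and GSTP1 rose in the metastases, 3 genes beside 7.69% of all genes called higher, and 11 fell, beside 8.4% called lower. The median log2FC over the 35 genes was −0.71, beside −0.02 over all genes. The HGA are the same samples as in the comparison with primary AGASAC, so the comparisons share them and are given side by side only.

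Of the superoxide dismutases and peroxiredoxins, edgeR called 5 of 10 genes. SOD1 was at 227, 233, 194 and 353 CPM in metastases 1 to 4, all far under the lowest HGA (log2FC −2.76, standard error 0.30, adjusted p = 3.81e-05), beside a log2FC of 2.27 in HGA relative to primary AGASAC. SOD2 was at 117, 112, 84.6 and 158 CPM, also all under the HGA (log2FC −1.80, standard error 0.25, adjusted p = 0.000548). SOD3, at 5.84, 4.78, 6.11 and 4.15 CPM, lay under every HGA and was not called by edgeR (log2FC −1.62, standard error 0.45, adjusted p = 0.113), while DESeq2 called it (−1.59, adjusted p = 0.0204), as did edgeR with Benjamini-Hochberg adjustment (adjusted p = 0.0112). Mitochondrial PRDX3 was at 89.5, 97.6, 63.0 and 81.8 CPM, less than even HGA 10 (log2FC −2.67, standard error 0.30, adjusted p = 6.6e-05). PRDX5 was at 401, 238, 231 and 353 CPM, again with no overlap (log2FC −1.89, standard error 0.31, adjusted p = 0.00244). PRDX4 of the endoplasmic reticulum was at 212, 326, 191 and 604 CPM, metastasis 4 highest and each of them above every HGA (log2FC 5.35, standard error 0.52, adjusted p = 1.25e-05).

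Among the peroxidases, GPX1 was at 273, 225, 177 and 260.1 CPM in metastases 1 to 4, and HGA 10 alone of the HGA lay at this level (log2FC −1.33, standard error 0.32, adjusted p = 0.0448). GPX3 was at 818, 733, 423 and 562 CPM, with HGA 4 inside this range and the other HGA below it (log2FC 2.09, standard error 0.50, adjusted p = 0.0456). Both calls were close to the threshold. The GPX1 call was lost in 12 of 14 fits that left out 1 sample each, all but those without HGA 4 or HGA 10, with adjusted p from 0.0542 to 0.226 and log2FC from −1.39 to −1.22 in those 12, and also with RLE scaling (adjusted p = 0.0538), library size alone (0.161), no filter (0.0756) and at least 10 counts in every sample (0.0542). The GPX3 call was lost in 13 of 14, all but that without HGA 4, with adjusted p from 0.0521 to 0.167 and log2FC from 1.96 to 2.24 in those 13. Without HGA 4, the GPX3 log2FC was 2.68 (adjusted p = 7.1e-05).

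In glutathione synthesis 2 of 4 genes were called and among the transferases 4 of 7, beside 16.1% of all genes. GCLM was at 43.1, 29.7, 13.2 and 47.6 CPM in the metastases, metastasis 3 lowest and all under the HGA (log2FC −2.40, standard error 0.41, adjusted p = 0.00301). GSS was at 12.3, 11.4, 18.3 and 13.1 CPM, metastasis 3 highest and close under HGA 10 (log2FC −2.10, standard error 0.36, adjusted p = 0.00316). GSTO1 was at 12.0, 32.4, 8.36 and 14.7 CPM, metastasis 2 highest and under every HGA (log2FC −2.37, standard error 0.41, adjusted p = 0.00319). These 3 enzymes of the cytosol had no sample of the metastases inside the HGA range. Over the 35 genes, 14 did not overlap between metastases and HGA, 12 lower and 2 higher in the metastases. The share of all genes without overlap was not counted for this comparison, so these counts have no background beside them.

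Membrane-bound MGST1 was at 26.0, 112, 60.5 and 123 CPM, all under the HGA, with metastasis 1 lowest (log2FC −3.30, standard error 0.42, adjusted p = 0.000177). MGST3 was at 9.08, 7.96, 13.5 and 7.03 CPM, a narrow range under every HGA (log2FC −3.56, standard error 0.59, adjusted p = 0.00245). MGST2 was at 55.2, 18.6, 71.7 and 69.3 CPM, with HGA 10 below, HGA 4 within and the other HGA above this range, and was not called (log2FC −0.71, standard error 0.54, adjusted p = 1). GSTP1 was at 199.8, 84.6, 68.5 and 67.4 CPM, each above every HGA (log2FC 2.01, standard error 0.45, adjusted p = 0.0286). Metastasis 1 was far above the others, and without it the value was 1.52 (adjusted p = 0.274); the call was also lost without metastasis 2 or without HGA 1, 5, 6, 7 or 8, with log2FC from 1.52 to 2.098 and adjusted p from 0.0506 to 0.274 over the 7 of 14 fits that lost it.

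Ferroportin fell, and edgeR called neither ferritin chain. SLC40A1 was at 10.4, 24.4, 19.3 and 16.0 CPM, metastasis 2 just under HGA 10 and the others well under every HGA (log2FC −2.54, standard error 0.46, adjusted p = 0.00483). FTH1 was at 599, 867, 478 and 656 CPM, with HGA 8 inside this range (log2FC 1.37, standard error 0.35, adjusted p = 0.062), and it was called by DESeq2 (1.41, adjusted p = 0.0126), and by edgeR with library size alone (adjusted p = 0.023), with at least 10 counts in every sample (adjusted p = 0.0317), with Benjamini-Hochberg adjustment (adjusted p = 0.00616) and without HGA 8 (1.54, adjusted p = 0.0195). FTL was at 341, 436, 294 and 275 CPM, with HGA 10 lower than all of them and the other 9 HGA higher than all (log2FC −0.68, standard error 0.27, adjusted p = 0.642).

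NFE2L2 was at 119, 67.7, 107 and 191 CPM in the metastases, metastasis 2 below every HGA and the others among them (log2FC −0.07, standard error 0.33, adjusted p = 1), with a sign that turned when single samples were left out. KEAP1 was at 118, 128, 96.8 and 108 CPM, with HGA 4 above all of them and the other HGA below (log2FC 0.36, standard error 0.23, adjusted p = 1). NQO1 was at 1167, 239, 102 and 592 CPM, with HGA 4 and HGA 6 within this range and the other HGA below it (log2FC 2.02, standard error 0.78, adjusted p = 0.593). Without HGA 4, NQO1 was called higher in the metastases (2.86, adjusted p = 0.0205). Without HGA 4 and HGA 10 the NQO1 value was 2.70 (adjusted p = 0.00181). In that fit 15 of the 35 genes were called, beside 2783 of all 13129 genes tested.

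Of the remaining genes, which were not called in any comparison, PRDX1 had a mean of 467 ± 131 CPM (SD) in the metastases, PRDX2 105 ± 6.98, PRDX6 161 ± 86.3 and SRXN1 31.4 ± 10.2 CPM, with log2FC relative to HGA of −0.82, −0.53, −1.04 and −0.80 and adjusted p of 0.925, 0.614, 0.647 and 1. TXN2, TXNRD1 and TXNRD2 were at 86.9 ± 7.88, 79.6 ± 23.6 and 14.0 ± 5.35 CPM, with log2FC of −0.71, 0.20 and −0.60. GPX2, GPX7 and GPX8 were at 11.4 ± 3.02, 20.2 ± 10.6 and 14.0 ± 7.93 CPM, with log2FC of 0.18, 1.15 and −0.72. GCLC, GSR, GSTZ1 and GSTK1 were at 109 ± 55.3, 11.5 ± 3.79, 6.67 ± 2.04 and 137 ± 139 CPM, with log2FC of −0.10, 0.67, −0.13 and −0.79. The adjusted p was 0.28 for TXN2 and 1 for the other 9 genes of these last 3 groups. The wider redox network had 20 of 75 genes (26.7%) called in the metastases relative to HGA, 3 higher and 17 lower, beside 16.1% of all genes, 7.69% higher and 8.4% lower. Relative to the primary tumors edgeR called 0 of 75, with 1 at an unadjusted p under 0.05, and DESeq2 called 0 of 83, with 2 at an unadjusted p under 0.05.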

How the data were processed

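The deposited table held raw counts per gene for 25 QuantSeq 3′ libraries, and counts were the values used. The authors trimmed reads with cutadapt, aligned them to CanFam3.1 with STAR and counted them per gene with featureCounts (versions not given), extending gene ends by 2 kb for unassigned reads and sharing reads with several matches evenly. The deposited table also held, by the authors, a normalized signal (counts divided by DESeq2 size factors, and its mean), the log2 fold change with its standard error from DESeq2, and p-value columns, raw and adjusted, of their own comparison, none of which were used.

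All 35 genes were tested with all others of the table in edgeR 4.0.16 under R 4.3.3: filterByExpr by group (minimum count 10, total 15), TMM scaling, and the quasi-likelihood test, with p adjusted by the Benjamini-Yekutieli method across every gene tested. A gene was called at an adjusted p of at most 0.05 with a log2FC of at least 1 or at most −1. Standard errors were the log2FC divided by the square root of F. DESeq2 1.42.0, other scalings, filters, terms, samples left out and fits within extraction batches were the alternatives, and the code was tested on simulated data. Summaries used Python 3.11.15.

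Metastases were paired with primary tumors by the numbers in the labels, and over genes each metastasis correlated best with its own primary tumor (0.73, 0.52, 0.57 and 0.43 for dogs 1 to 4). The main fit of this comparison had no term for the dog, and the fit with the dog as a block was the alternative. Values by sample are given for every gene called in any comparison and for FTH1, FTL, NFE2L2 and KEAP1, and the other genes in short. Of the other redox genes the 3 largest rises and falls among those called are named. Summed marker lists are given for 10 cell types. The 35 genes, the lists and the rule for naming genes were chosen with earlier results of these data known.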

Additional observations from a re-analysis of the deposited data

Results flagged for a closer look

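Within the groups of 4 to 10 samples, 102 sets of values for named genes and summed markers were searched for 1 sample far from all others of its group, by the gap to the nearest sample relative to the range. The 11 primary AGASAC were too many for this rule and were not searched. Such a gap was found in 9 of the 102 sets. The limits for the gap are those set for about 1 of 20 sets of independent, normally distributed values, and the rate for CPM of related genes was not tested. Among the HGA and metastases searched, HGA 4 had 4 of the 9 and HGA 10 had 2.

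In HGA 4, NQO1 was at 609.9 CPM with the other HGA at 1.72 to 121 CPM, HMOX1 at 1232 CPM with the others at 12.5 to 174 CPM, GPX3 at 572 CPM with the others at 47.9 to 161 CPM, and KEAP1 at 149 CPM with the others at 52.6 to 93.1 CPM. In HGA 10, PRDX3 was at 193 CPM with the other HGA at 445 to 641 CPM, and GPX8 at 74.4 CPM with the others at 6.79 to 37.0 CPM. GPX2 in HGA 2 was at 44.3 CPM and at most 23.2 CPM in the others. GSTP1 in metastasis 1 was at 199.8 CPM, with the other metastases at 67.4 to 84.6 CPM. Summed endothelial markers were at 532 CPM in HGA 7, with the other HGA at 189.7 to 264 CPM. Why these samples stood apart was not tested.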

How the results depend on the processing

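Of the 17 genes called in HGA relative to primary AGASAC, 13 were called wherever tested in the 33 alternatives outside the fits within a batch or naming series (GPX1, SOD3, GSTP1 and MGST2 were lost in some), and of the 14 in metastases relative to HGA, 11 wherever tested in 21 (GPX1, GPX3 and GSTP1 were lost). Of these 13 and 11, at least 10 counts in every sample left PRDX4 untested in both comparisons and MGST3 in the first. Within the first naming series, GPX3 (adjusted p = 0.0507), FTH1 (0.101) and SOD3 (0.206) were lost. Leaving out 1 sample gave 15 to 19 called genes in the first comparison, 11 to 15 in metastases relative to HGA and 0 in metastases relative to primary tumors. Of all genes, these fits called 2828 to 3373, 1543 to 2588 and 0. Within extraction batches 5, 6 and 8, with 2 or 3 samples a group, 1, 7 and 5 were called, and 262, 637 and 338 of all genes. With extraction batch as a term, 17 of the 35 were called, 14 higher and 3 lower, with GSTP1 lost and SRXN1 gained, among 3003 genes. Taking HGA and primary AGASAC of the same number as a block, without primary tumor 11, gave 15 of the 35 among 2543 genes. The numbers do not pair these tumors, since no HGA correlated best with its own number. A call lost or gained with this block therefore does not show how stable the call is. The block by dog gave 0 of the 35 and 1 gene in all. NFE2L2 turned sign in HGA relative to primary AGASAC with library size alone (−0.25), no filter (−0.015), at least 10 counts in every sample (−0.035), the replicate block (−0.061), a neutered or intact term (−0.089), within batch 6 (−0.056) and without HGA 4 and HGA 10 (−0.054), and ran from −0.12 to 0.11 with 1 sample left out. In metastases relative to HGA it turned with library size alone (0.18), at least 10 counts (0.0013) and without HGA 4 and HGA 10 (0.031), and ran from −0.39 to 0.13 with 1 sample left out. NQO1 turned within batch 5 (0.27). The cause was not tested. All genes called in HGA relative to primary AGASAC numbered 1452 with at least 10 counts in every sample. In metastases relative to HGA they numbered 3211 by DESeq2, 1153 with at least 10 counts and 3536 with Benjamini-Hochberg adjustment, and in metastases relative to primary tumors 5 by DESeq2. Library size alone moved the median log2FC of all genes by −0.30 in HGA relative to primary AGASAC and by 0.28 in metastases relative to HGA. The share of all called genes that were higher went from 50.2 to 32.8% and from 47.8 to 63.7%, and the 35 genes gave 10 higher and 4 lower, and 4 higher and 10 lower. Relative to all genes, their median was then 0.76 and −0.70 away, beside 0.73 and −0.70 with TMM. GPX2, GPX7, GSR and PRDX4 had HGA with a count of 0, none of them HGA 4, the library with the fewest counts.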

Other observations

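Thioredoxin itself was not listed under its symbol. The locus LOC474798, which carries the gene ID that RefSeq gives to TXN, was at 87.3 to 1216 CPM in HGA, lowest in HGA 10 and highest in HGA 4, and at 195 to 641 CPM in primary AGASAC. Its log2FC in HGA relative to primary AGASAC was 0.22 (standard error 0.29, adjusted p = 1). The 4 metastases were at 319, 279, 219.7 and 1022 CPM.

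Summed over the genes of a role, CPM gave a further view of each sample group. The 3 superoxide dismutases together were at 1466 to 3013 CPM in HGA, 349 to 614 CPM in primary AGASAC and 285 to 515 CPM in metastases. The 7 glutathione transferases together were at 702 to 1984 CPM in HGA, 173 to 735 CPM in primary AGASAC and 283 to 649 CPM in metastases. The 5 glutathione peroxidases together were at 324 to 1034 CPM in HGA, 699 to 1737 CPM in primary AGASAC and 635 to 1138 CPM in metastases. These sums were not tested.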
